A study of Mus musculus with 3 samples.

Results

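The 9 genes Cnp, Mal, Mbp, Mag, Mog, Mobp, Opalin, Cldn11 and Ermn, all known for their products in central nervous system myelin, were followed through RNA purified from tagged interneuron ribosomes of the mouse cortex. They were chosen by symbol out of 32531 gene symbols, and 9 of 9 were found in each count file. The series holds 3 libraries of 1 group, immunopurified (IP) from the whole cerebral cortex and named replicates 1, 2 and 3. The mice were adults that carried the driver Htr3a-Cre (NO176) together with the reporter Rosa26-LSL-EGFP/Rpl10a. In this cross the Cre recombinase of the driver removes a stop cassette at Rosa26, so that any cell that has ever had enough Cre makes the ribosomal protein Rpl10a fused to EGFP, and antibodies against EGFP then capture ribosomes with the messenger RNA they carry (translating ribosome affinity purification, TRAP). Unpurified cortex was not analysed here, and every library carries both the driver and the reporter. Myelin RNA of cells without the tag, carried through the purification, and myelin RNA on tagged ribosomes can therefore not be told apart. Nor can fewer cells be told apart from less RNA per cell in such bulk material. The labels do not say whether the libraries came from separate animals, so the spread between them may be technical.

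Myelin is the membrane that oligodendrocytes wrap around axons in the brain. Its compact layers are held together by proteolipids and basic proteins, its uncompacted rims and inner layer carry enzymes and adhesion proteins, and its outer face carries immunoglobulin-like proteins. The RNAs of Mbp and Mobp are known to travel out along oligodendrocyte processes and to be translated near the growing sheath. The transcription factors Sox10 and Myrf are known to switch these genes on.

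The upstream sequences below belong to Mog, Ermn and Cnp, which were among the 4 tested genes that differed most between libraries, and to Mobp, which was among those that differed least. Cldn11, the other of those 4, had low counts and is not printed, but its matches are given below. RefSeq (GRCm38.p6) start sites were used for 8 of the 9 genes, and no window was taken for Mbp. Each sequence runs 5′ to 3′ in the direction of the gene from 250 to 41 bases before that start, over 210 bases. Capitals mark matches, on either strand, to the Sox cores ACAAAG and ACAATG or to CTGGNAC, the pattern used here for Myrf. N stands for any base, so this pattern may be looser than the motif itself. No 2 matches overlap in these windows. The windows are chr11:100574689-100574898 on the plus strand for Cnp, chr17:37023439-37023648 on the minus strand for Mog, chr2:58052905-58053114 on the minus strand for Ermn and chr9:120149492-120149701 on the plus strand for Mobp.
Cnp: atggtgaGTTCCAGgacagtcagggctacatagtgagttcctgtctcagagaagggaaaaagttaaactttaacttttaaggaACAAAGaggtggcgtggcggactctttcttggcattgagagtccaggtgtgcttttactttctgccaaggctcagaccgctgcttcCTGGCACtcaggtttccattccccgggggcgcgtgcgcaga
Mog: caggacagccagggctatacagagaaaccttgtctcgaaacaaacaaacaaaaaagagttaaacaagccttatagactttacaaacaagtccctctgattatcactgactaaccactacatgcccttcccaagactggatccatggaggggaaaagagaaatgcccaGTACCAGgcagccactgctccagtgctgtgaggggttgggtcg
Ermn: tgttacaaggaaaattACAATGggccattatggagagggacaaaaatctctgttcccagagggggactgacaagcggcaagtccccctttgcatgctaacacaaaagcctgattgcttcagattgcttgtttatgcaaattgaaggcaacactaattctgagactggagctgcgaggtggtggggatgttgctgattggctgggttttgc
Mobp: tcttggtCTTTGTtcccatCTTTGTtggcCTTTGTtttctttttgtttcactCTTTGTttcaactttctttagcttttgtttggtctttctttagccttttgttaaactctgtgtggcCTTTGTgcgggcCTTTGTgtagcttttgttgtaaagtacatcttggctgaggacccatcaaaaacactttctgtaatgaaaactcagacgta
The Cnp window held 1 match to ACAAAG and 2 to CTGGNAC, the Mog window 1 to CTGGNAC, and the Ermn window 1 to ACAATG. The Mobp window held 6 matches to ACAAAG, each as CTTTGT on the printed strand. Among the windows not printed, those of Cldn11 and Mal held no match to any of these motifs. That of Opalin held 1 to ACAAAG. The windows of Mag differed with the start used, from no match to 1 to ACAAAG and 2 to CTGGNAC. Of 32851 promoter windows of the same length, 14.2% held ACAAAG, 9.42% ACAATG, 13.8% CTGGNAC and 32.9% at least 1 of them. A match describes the letters and does not show a bound site.

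The files hold raw counts, and gene counts per library ran from 13951332 to 14461053. The 9 genes together took 3971 counts in replicate 1, 3187 in replicate 2 and 2992 in replicate 3. These were 0.0276% (Wilson 95% interval 0.0268% to 0.0285%), 0.0228% (0.0221% to 0.0237%) and 0.0207% (0.0200% to 0.0214%) of the gene counts. Replicate 1 had the highest share and replicate 3 the lowest, and none of these intervals overlapped another. Intervals cover counting error only. Corrected for exon length and for library total (TPM, a relative abundance of transcripts), the 9 genes summed to 349, 248 and 224 TPM. For scale, Gad2, an enzyme that makes GABA in interneurons, stood at 2123, 2324 and 2141 TPM, which is 15.6, 24.9 and 27.4 times the level of Cnp, the highest of the 9, in the same library.

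Levels per length put Cnp first and Opalin last. Cnp, the cyclic nucleotide phosphodiesterase of uncompacted myelin, stood at 136, 93.2 and 78.2 TPM in replicates 1, 2 and 3 (103 ± 30.2, SD over n = 3 libraries, as for every value after ±). It ranked 2041 among 23891 genes with a length. Its exons lie on chromosome 11 between 100574904 and 100591729 (GRCm38), and 4.23% of them are overlapped by Dnajc7 on the opposite strand. Replicate 1 was the highest for Cnp and replicate 3 the lowest.

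Mal, a raft-associated proteolipid of membrane traffic to myelin, stood at 61.0, 37.5 and 39.5 TPM (46.0 ± 13.0). Its position is chromosome 2, 127633226 to 127656695. Replicate 1 lay above the others, which were close together. Cnp was 2.23-fold above Mal with no overlap between their ranges.

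Mbp, the basic protein that holds the inner faces of compact myelin together, stood at 37.5, 37.1 and 37.3 TPM (37.3 ± 0.220). Its raw counts of 875, 883 and 913 were nearly level, and its coefficient of variation of 0.589% was the smallest of the 9 genes. Mbp spans chromosome 18 from 82475146 to 82585637 and has 16 annotated transcripts. Mobp, a second basic protein of the compact layers, stood at 32.1, 33.2 and 29.8 TPM (31.7 ± 1.70) and lies on chromosome 9 from 120149707 to 120181484. It was the only one of the 9 genes for which replicate 2 had the highest TPM. Ermn, a cytoskeletal protein of mature oligodendrocytes, stood at 45.9, 30.5 and 23.3 TPM (33.3 ± 11.5), so that it was above Mbp in replicate 1 and below it in the others. Ermn lies on chromosome 2 from 58045113 to 58052864, and 6.52% of its exons are overlapped by Galnt5 on the opposite strand.

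The ranges of the neighbours Mal and Mbp, Mbp and Ermn, and Ermn and Mobp overlapped between libraries. The order of these 4 genes also depended on the length used. With the longest annotated transcript in place of merged exons, Mobp came to 50.1 TPM and Mbp to 49.9 TPM, above Mal at 34.9 and Ermn at 25.2. Cnp stayed first at 97.4 TPM under that choice.

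Mog, an immunoglobulin-like protein of the outermost myelin face, stood at 22.8 TPM in replicate 1 against 6.47 and 7.93 TPM in replicates 2 and 3 (12.4 ± 9.03). Its position is chromosome 17, 37010743 to 37023398. Its counts were 107 (exact Poisson 95% interval 87.7 to 129), 31 (21.1 to 44.0) and 39 (27.7 to 53.3), so replicate 1 stood apart from the others beyond counting error.

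Cldn11, the claudin of the tight junctions between myelin layers, stood at 8.93, 7.04 and 4.82 TPM (6.93 ± 2.06) from 46, 37 and 26 counts. It lies on chromosome 3 from 31149920 to 31164324. Mag, the sialic acid binding protein of the layer next to the axon, stood at 3.66, 3.14 and 3.49 TPM (3.43 ± 0.261) from 41, 36 and 41 counts and lies on chromosome 7 from 30899176 to 30914873. Mag varied little between libraries, yet at these counts its exact Poisson intervals ran from 29.4 to 55.6 in replicates 1 and 3 and from 25.2 to 49.8 in replicate 2. By merged exon lengths, Mog exceeded Cldn11 in 2 of 3 libraries, and Cldn11 exceeded Mag in 3 of 3 with no overlap. The order of Cldn11 and Mag depended on the length correction. With the longest annotated transcript their means came closer, at 5.25 TPM for Cldn11 and 4.35 TPM for Mag. Without a length correction, Mag ranked above Cldn11.

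Opalin, a transmembrane protein of oligodendrocytes, was at the edge of detection with 4, 2 and 0 counts. The exact Poisson intervals of the first counts were 1.09 to 10.2 and 0.242 to 7.22, and a count of 0 allows, taken 1-sided, up to 3 counts, or 0.207 CPM (counts scaled to library size), in replicate 3. The gene lies on chromosome 19 from 41061710 to 41077113. Its ratios between libraries are not given.

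**Figure D1:**
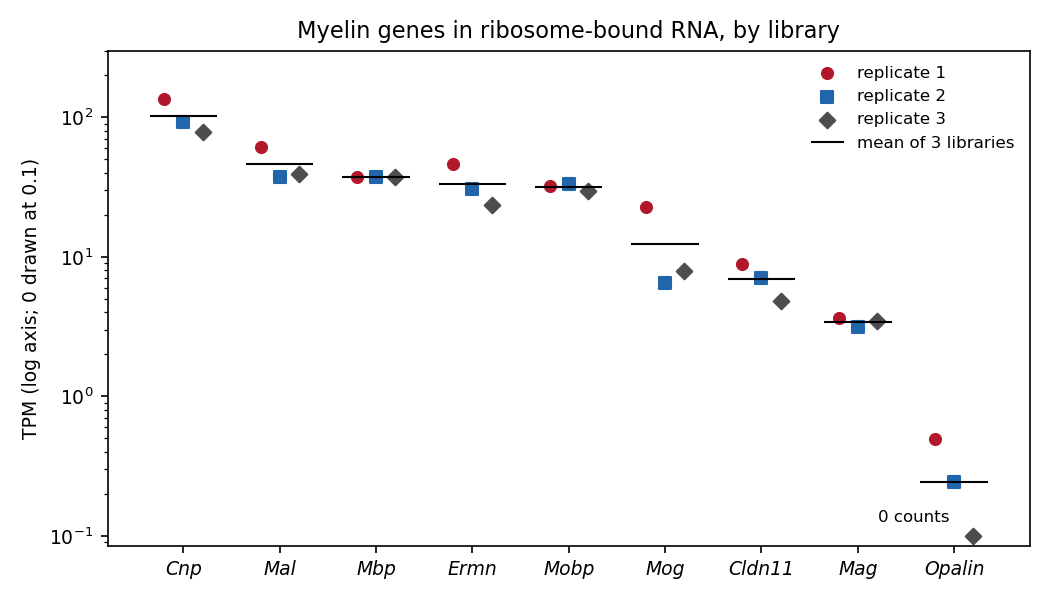
Level of each of the 9 myelin genes in TPM (log axis) in replicates 1, 2 and 3, with the mean of the libraries as a bar; 0 counts are drawn at 0.1. Replicate 1 lies above the others for Cnp, Mal, Ermn, Mog and Cldn11, while the points of Mbp lie between 37.1 and 37.5 TPM.

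For differences between libraries, counts were scaled with TMM factors (trimmed mean of M-values) and compared as log2(CPM + 0.5). Of the 9 genes, 8 reached a mean of 1 CPM and were tested; Opalin did not. Of these, 8 were lower in replicate 3 than in replicate 1 and 7 were lower in replicate 2 than in replicate 1, against 48.7% and 49.2% of the 12941 genes tested. Both comparisons share replicate 1. With total counts as the scaling, the median of all genes shifted to 0.12 and 0.10 for replicates 3 and 2 minus 1, and the counts were 7 and 6 of 8, as Mbp turned to 0.05 and 0.06 and Mobp stood at -0.04 and 0.12 in that order. With DESeq2 size factors, 8 of 8 were lower in both, with Mobp at -0.00291 for replicate 2 minus 1. The median log2 difference was -0.44 for replicate 2 minus 1 and -0.72 for replicate 3 minus 1, where the medians over all genes tested were 0.01 and 0.02. Between replicates 3 and 2, the median was -0.09 and 5 of 8 were lower, against 50.2% of all genes.

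Mog was 3.59-fold higher in replicate 1 than in replicate 2 and 2.96-fold higher than in replicate 3. Ermn was 1.53-fold and 2.03-fold higher in replicate 1, Cnp 1.49-fold and 1.80-fold, and Mal 1.66-fold and 1.59-fold. Cldn11 was 1.29-fold and 1.91-fold higher in replicate 1, at low counts. The corresponding ratios of Mbp were 1.03 and 1.04, those of Mobp 0.98 and 1.11, and those of Mag 1.18 and 1.08. A log2 difference of at least 1, or 2-fold, was reached by Mog alone in both comparisons with replicate 1, against 1.87% of all genes that were as much lower in replicate 2 and 2.65% in replicate 3. Ermn, at a log2 difference of -0.999 with the pseudocount, lay just short of it for replicate 3. None of the 8 was as much higher in replicate 2 or 3 than in replicate 1, against 5.49% and 8.07% of all genes. None of the 8 reached 2-fold between replicates 3 and 2, where 1.75% of all genes were as much lower and 2.37% as much higher.

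Several of these differences exceeded counting error, and none passed the adjusted test against the spread of genes of like abundance. The residual deviance of an intercept-only fit in edgeR, at the dispersion of genes of like abundance, called 0 of 8 genes at a Benjamini-Hochberg adjusted p below 0.05, against 0.456% of all genes. At an unadjusted threshold of 0.05 it called 2 of 8, Mog (edgeR adjusted p = 0.494) and Cnp (edgeR adjusted p = 0.677), against 6.95% of all genes. Ermn had an edgeR adjusted p of 0.792, and Mal, Mbp, Mobp, Mag and Cldn11 each had 0.9999. The same test with DESeq2 size factors and dispersions also called 0 of 8, against 0.286% of all genes. A chi-square test against sampling noise alone called 5 of 8 (Cnp, Ermn, Mog, Mal and Cldn11), but it also called 74.3% of all genes. Mbp, Mobp and Mag did not pass that test (adjusted p = 0.755, 0.105 and 0.781 by chi-square). A p that misses the threshold does not show that the libraries held equal amounts, and each of these tests compares libraries, not conditions.

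The make-up of the myelin counts differed with the library. Cnp made up 34.4% of the counts of the 9 genes in replicate 1 (Wilson 95% interval 32.9% to 35.9%), 29.9% in replicate 2 (28.4% to 31.5%) and 27.4% in replicate 3 (25.9% to 29.1%). The share of Mbp went the other way, at 22% (20.8% to 23.4%), 27.7% (26.2% to 29.3%) and 30.5% (28.9% to 32.2%). Its own counts were nearly level at 875, 883 and 913, so its share rose mostly because the total of the 9 genes fell. Mbp and Mobp together took 37.3%, 47.8% and 50.2%, while Cnp, Mal, Mog and Ermn together took 60.4%, 49.9% and 47.5%. These 2 sets were formed after their values were seen, so their shares are a description. Per length, the ratio of Cnp to Mbp was 3.63, 2.51 and 2.09, and that of Mog to Mbp 0.608, 0.174 and 0.212. The ratio of Mobp to Mbp stayed between 0.799 and 0.895.

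**Figure D2:**
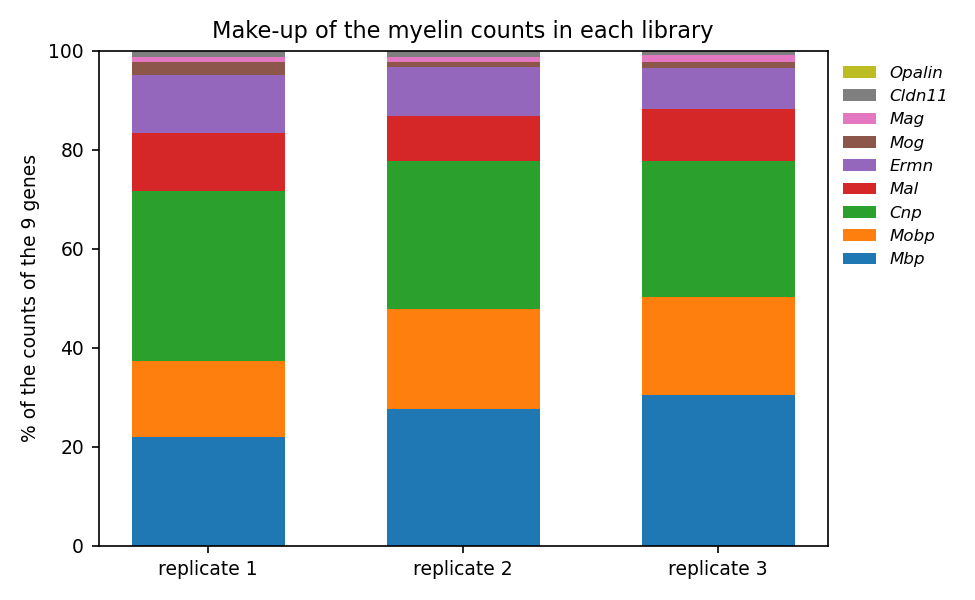
Stacked bars give the percentage of the counts of the 9 myelin genes held by each gene in replicates 1, 2 and 3. The Mbp and Mobp segments together grow from 37.3% in replicate 1 to 50.2% in replicate 3, and those of Cnp, Mal, Ermn and Mog shrink.

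Transcript length moved with the library over all genes. Among genes tested with a known length, the fifth with the shortest longest transcripts (73 to 2139 nt) had a median log2 difference of 0.39 for replicate 3 minus 1, and the fifth with the longest (5559 nt and more) one of -0.19. Of the 8 myelin genes, 7 lay below the median of their own length class in both comparisons, Mbp being the exception. By definition such a median splits the genes of its class evenly, and Mobp lay almost on it for replicate 2 minus 1. Measured from that class median, the median of the 8 genes was -0.62 for replicate 2 minus 1 and -0.88 for replicate 3 minus 1. Mog then stood at -1.93 and -1.80, Cldn11 at -0.61 and -1.16, Ermn at -0.63 and -1.05, Cnp at -0.66 and -0.97 and Mal at -0.80 and -0.79. Mbp stood at 0.01 and 0.02, and Mobp at -0.003 and -0.19. This comparison was added after the data had been seen.

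**Figure D3:**
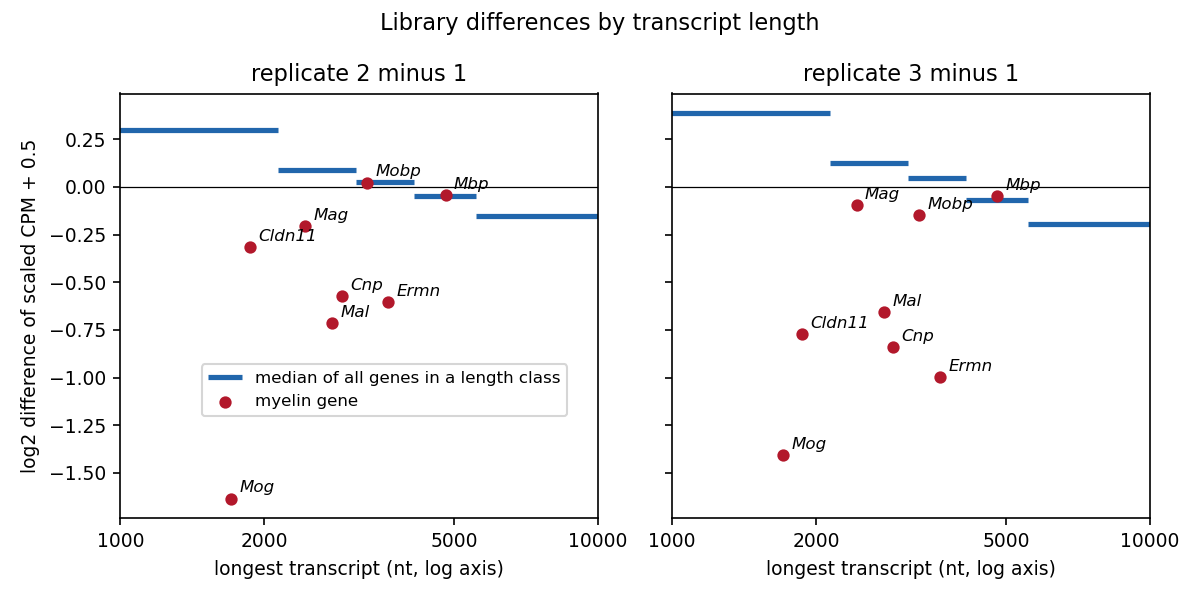
Log2 difference of scaled CPM + 0.5 for replicate 2 minus 1 (left) and replicate 3 minus 1 (right) against the longest transcript (log axis) for the 8 myelin genes tested, with blue bars at the median of all genes in each of 5 length classes. Mog, Cldn11, Mal, Cnp and Ermn lie well under the bar of their class, and Mbp lies on it.

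Among other genes of the oligodendrocyte lineage, none varied between libraries past the adjusted threshold. Of 29 further myelin and oligodendrocyte genes with a matching symbol, 20 were tested and 0 were called by edgeR or by DESeq2. At an unadjusted threshold of 0.05, which 6.95% of all genes passed, edgeR called 2 of the 20, among them Fa2h. This gene, an enzyme of myelin lipid synthesis with 198, 97 and 64 counts and an edgeR adjusted p of 0.393, is named after its values were seen. The median log2 difference of these 20 genes was -0.17 for replicate 2 minus 1 and -0.48 for replicate 3 minus 1. By level, the list was led by Omg at 561 ± 73.5, Car2 at 135 ± 28.6 and Tspan2 at 133 ± 17.5 TPM. Omg is also made by neurons.

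Of the lineage's transcription factors, 4 of 8 were lower in replicate 2 and 5 of 8 lower in replicate 3 than in replicate 1, near the 49.2% and 48.7% of all genes. Sox10 had 83, 92 and 41 counts, and Myrf 54, 54 and 101, so Sox10 was lowest and Myrf highest in replicate 3. Of 10 oligodendrocyte transcription factors, 8 were tested, 0 were called by edgeR or DESeq2 and 0 passed edgeR's unadjusted p of 0.05. Their median log2 differences were 0.02 for replicate 2 minus 1 and -0.11 for replicate 3 minus 1. Sox8 at 25.5 ± 6.88, Olig1 at 24.3 ± 2.89 and St18 at 20.4 ± 4.56 TPM were the highest. Of 10 genes of precursors and newly formed oligodendrocytes, 9 were tested and 0 were called by edgeR or DESeq2. Past edgeR's unadjusted threshold of 0.05, which 6.95% of all genes passed, was 1 of the 9 (Cspg4, edgeR adjusted p = 0.632). The medians of these 9 genes were -0.19 and -0.35. Lhfpl3 at 27.9 ± 1.69, C1ql1 at 17.4 ± 5.28 and Tnr at 14.4 ± 0.173 TPM led the list. Of 8 genes of peripheral myelin, 3 were tested and 0 were called by edgeR or DESeq2, with 0 past edgeR's unadjusted threshold, and Pmp2 had 0 counts in 3 of 3 libraries. Exons of Gm37389 on the same strand overlap 86.9% of those of Pmp2, so its reads may have been counted as ambiguous.

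Markers of other cell types also differed between libraries, and their part in the myelin differences was not tested. Over 10 genes each, summed levels in replicates 1, 2 and 3 were 496, 409 and 415 TPM for astrocytes, 35.7, 21 and 29.1 TPM for microglia and 29.6, 19.2 and 19.8 TPM for endothelium. Among microglial genes, Trem2 had 0 counts in 3 of 3 libraries. Those of excitatory neurons summed to 901, 982 and 1133 TPM, those of GABAergic neurons to 4499, 4326 and 4077 TPM and those of the Htr3a class to 4402, 3545 and 3693 TPM. By these sums, replicate 1 was the highest for the glial, endothelial and both interneuron lists, and the lowest for the excitatory list. By median TPM it was the highest for each of them, the excitatory list included at 86.7, 82.5 and 80.4. The sums lean on few genes. Slc1a2 held 420, 342 and 347 TPM of the astrocyte sums. In the excitatory list, Nrgn at 252, 337 and 405 TPM and Slc17a7 at 158, 170 and 261 TPM were the highest. By edgeR and by DESeq2, 0 genes of these 6 lists were called. Past edgeR's unadjusted threshold of 0.05, which 6.95% of all genes passed, were 3 of 6 endothelial genes tested (Flt1, Pecam1 and Slco1a4), 1 of 9 excitatory genes (Slc17a7) and 1 of 10 GABAergic genes (Maf), all named after their values were seen. The endothelial genes did not share a direction. Flt1 (66, 14 and 46 counts) and Slco1a4 (44, 4 and 7) were highest in replicate 1, and Pecam1 (3, 16 and 31) was lowest there.

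**Figure D4:**
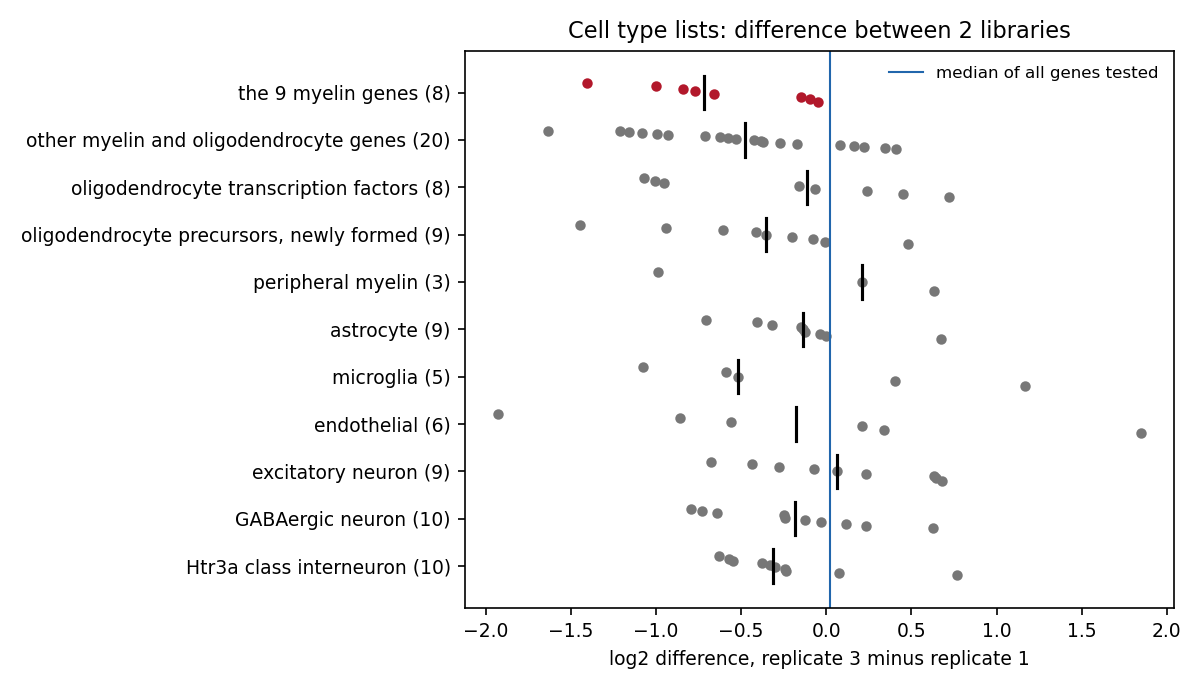
Log2 difference of scaled CPM + 0.5 for replicate 3 minus replicate 1, 1 point per tested gene, for the myelin genes (red) and each other list (grey), with the list median as a black bar, the number of genes in brackets and the median of all genes as a blue line. The 8 myelin genes tested all lie left of the blue line, with a median of -0.72.

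Genes whose pattern over the 3 libraries lay nearest to the median pattern of the 9 genes were ranked by Euclidean distance of their log2 deviations from their own mean. The median pattern was 0.36, -0.07 and -0.34 in replicates 1, 2 and 3. Of 10017 other genes averaging 5 CPM or more, the nearest were Tbc1d25, Anln, Ralgapa1, Foxj3, Zfp719, Peg10, Brca2, Dkk3, Upp2 and Tpgs2, at distances from 0.028 to 0.033. Anln, a cytoskeletal protein found in myelin, was the only one of these 10 that belongs to the oligodendrocyte lists, and it had 180, 135 and 116 counts. As a list, the further myelin and oligodendrocyte genes were not the nearest. Their median percentile in this ranking was 27.0 over 15 ranked genes, against 21.8 over 10 for the Htr3a class and 26.6 over 6 for astrocytes. The other lists with ranked genes lay farther, from 32.5 (GABAergic) to 62.9 (peripheral myelin). Opalin, at 4, 2 and 0 counts, helps set the median pattern. Without it the pattern of the 8 tested genes was 0.41, -0.09 and -0.29, and 0 of the 10 nearest genes were the same, so these names depend on that choice, which was added after the data had been seen. The percentiles of the lists are given only for the pattern with Opalin. Among the 8 tested genes, Cnp at 0.12 and Cldn11 at 0.14 lay near the median pattern of the 9. Mog at 0.85, Mbp at 0.47, Mag at 0.44 and Mobp at 0.42 lay far from it. The distance of Opalin, 0.096, is no measure of likeness. Its values lie below the pseudocount of 0.5 CPM, and its own value in replicate 3 is the median there.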

How the data were processed

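RNA bound to EGFP-tagged ribosomes was sequenced in 3 immunopurified cortex libraries. The authors deposited whole-number read counts per gene symbol, 1 file per library, not normalized. The submitters' processing notes list STAR 2.0.0e, HTSeq and mm10 with no role for each. Annotation, counting mode and strand setting were not given in the sources used here. Reads from exons that overlap on opposite strands can thus not be separated. Lines that name no gene stayed out of library sizes: 11.0% to 13.1% of records fell on no feature, 2.49% to 2.83% were ambiguous and 11.2% to 13.1% had no unique alignment.

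TPM was computed here from merged exon lengths of GENCODE M21 (GRCm38), which matched 23155 symbols directly and 736 by an older name. Library differences used TMM-scaled CPM with a pseudocount of 0.5 and genes averaging 1 CPM or more. Variation between libraries was tested with edgeR 4.0.16 (residual deviance at the trended dispersion, 2 degrees of freedom, Benjamini-Hochberg over all genes), checked on simulated data. DESeq2 1.42.0, R 4.3.3, Python 3.11.15, pandas 2.3.3 and statsmodels 0.14.6 were also used. Alternatives covered scaling, filter, pseudocount, dispersion, length and leaving out each library. Named were the 9 genes, the 3 highest genes by TPM of each oligodendrocyte list and the 10 genes nearest in pattern. Other genes (Gad2, Sox10, Myrf, Pmp2, Trem2, Slc1a2, Nrgn and those past an unadjusted threshold) were named after their values were seen. The members and lists were chosen with earlier results of these data known. In the lists, 1 entry for a myelin gene was misspelled and left unmeasured, and some list genes are not reported here.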

Additional observations from a re-analysis of the deposited data

How the results depend on the processing

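The calls of edgeR on the myelin genes stayed at 0 with every scaling, filter and left-out library tried and with DESeq2, and were 5 only against Poisson noise. Apart from that test, adjusted p-values ran from 0.480 to 0.998 for Mog and from 0.636 to 0.998 for Cnp. At an unadjusted p below 0.05, 2 genes became 1 with total counts, 5 against Poisson noise and 0 to 1 when a library was left out, with 0 without replicate 1. Over all genes, 59 calls became 37 with DESeq2 size factors and dispersions, 9615 against Poisson noise and 3 to 25 with a library left out. Genes at least 2-fold lower in replicate 3 than in replicate 1 went from 1 to 2 with DESeq2 size factors, with a pseudocount of 0.1 and without replicate 2 (2 in that case), as Ermn lies at the threshold. The mean share of counts of 0.0237% was 0.0175% of all records. With a minimum of 20 CPM, 6 of the 10 nearest genes were shared, and 0 with the pattern taken without Opalin. No paired analysis was possible because the series has 1 group. Of the main results, 58 of 75 alternative values kept their side or size. Low counts limit Mog, Mag, Cldn11 and Opalin.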
